A study of Glycine max with 12 samples.

Results

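The comparison described here is the genotype by aluminium interaction in soybean (Glycine max) roots. It asks which genes answered aluminium differently in the line labelled OX than in the line labelled WT. It was computed as the log2 ratio of OX_Al to OX_CK minus the log2 ratio of WT_Al to WT_CK, two-sided, and all 12 of the 12 libraries of the series entered it. The 4 groups were OX roots with 50 µM AlCl3 (OX_Al), OX roots with 0 µM AlCl3 (OX_CK), WT roots with 50 µM AlCl3 (WT_Al) and WT roots with 0 µM AlCl3 (WT_CK), with 3 libraries each. What the abbreviation OX means, which gene the line may carry, how many plants made a library and how long the roots were treated are not stated in the labels. The spread behind the p-values is that of the 3 libraries a group, and it may be partly technical.

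Aluminium ions become soluble in acid soil and act first on the growing root tip, where they bind the cell wall and the plasma membrane and stop elongation. Plants are known to answer by releasing organic acids that bind the ion, by changing the cell wall and by moving the metal into vacuoles. In Arabidopsis the zinc finger protein STOP1 is a known regulator of several of these genes. An interaction on the log2 scale compares folds: it is positive where aluminium multiplied the level more, or divided it less, in OX than in WT, and negative in the reverse case.

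The libraries held 15923413 to 18399566 counts and 41049 to 42171 genes with a count. Of 56877 genes in the table, 37170 were tested. The table does not pair its identifiers with gene names, and 0 of them matched the reference table, so roles could not be given, gene groups by function could not be formed and the tissue label could not be checked against root markers. Levels are given as CPM, the counts relative to library size, after TMM scaling, which corrects library totals for a few abundant genes. The identifiers give the chromosome. In bulk roots, a change in the number of cells of a type and a change of RNA per cell cannot be told apart.

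The difference was called for 605 of the 37170 genes, 1.63% of those tested, at an adjusted p under 0.05 by edgeR's quasi-likelihood test. The response was higher in OX for 327 genes, 0.88% of those tested, and lower for 278 genes, 0.748%. At an unadjusted p under 0.05 the same test gave 4523 genes, or 12.2%. Most calls were large, but the test seldom called small differences in simulated libraries. There it called 10% of 50 genes raised and 6% of 50 genes lowered by 1 log2 unit. Only changes in OX_Al alone were simulated, in genes above a minimum mean level. The sizes are thus those of genes the test selects. The middle 50 percent of the higher genes had a log2 difference of 1.31 to 2.73, with a median of 1.82, and 149 of them reached 2 or more. The middle 50 percent of the lower genes ran from -3.09 to -1.69, with a median of -2.31, and 171 of them were at -2 or below. Over all tested genes the median was -0.03.

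**Figure D1:**
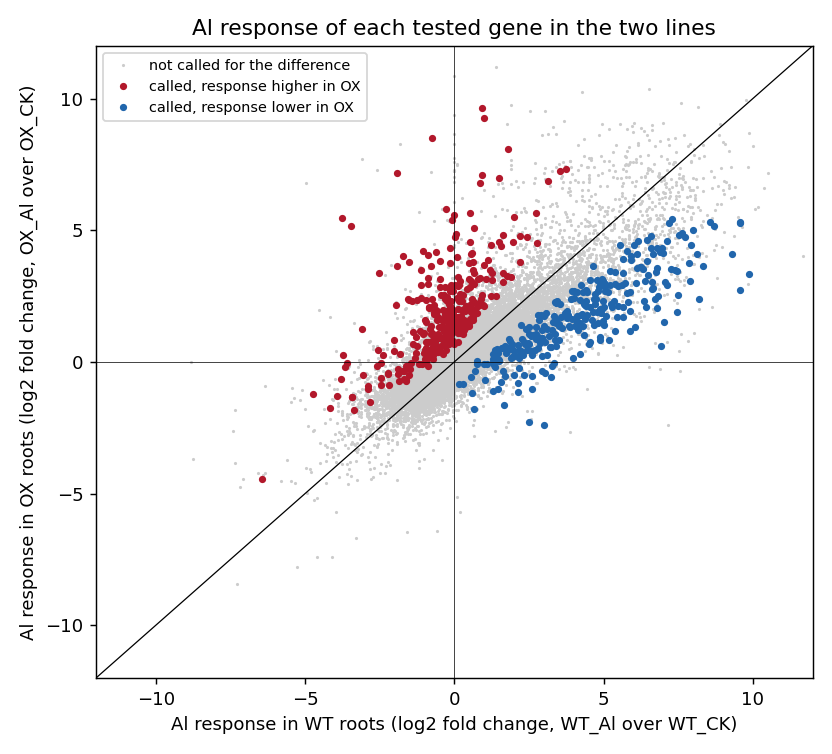
Each point is a tested gene, with its Al response in OX roots (log2 fold change, y axis) and in WT roots (log2 fold change, x axis); the diagonal line marks equal responses. The 327 genes called higher lie above the line, many near 0 on the x axis, and the 278 called lower lie below it, mostly where both responses are positive.

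The simple responses of each set are given side by side, since the 4 comparisons share libraries with the interaction. Over the 327 higher genes the median log2 response to aluminium was 1.65 in OX and -0.23 in WT. Over the 278 lower genes it was 1.65 in OX and 4.18 in WT. The median log2 ratio of OX to WT was 1.64 with Al and -0.16 without it for the higher genes, and -0.37 with Al and 2.1 without it for the lower genes. Both sets hold genes of several patterns, which these medians do not show.

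The same contrast could be read library by library from the level of each gene relative to the mean of its 4 groups. For the 327 higher genes, the median over genes was 1.08, 1.24 and 1.22 (log2) in the OX_Al libraries. It was -0.38, -0.41 and -0.39 in OX_CK, -0.53, -0.51 and -0.52 in WT_Al, and -0.36, -0.32 and -0.25 in WT_CK. The OX_Al libraries alone were high, and the other 9 lay close together. For the 278 lower genes, the medians were 1.17, 1.32 and 1.33 in OX_Al, -0.83, -0.11 and -0.56 in OX_CK, 1.79, 1.69 and 1.38 in WT_Al, and -2.56, -2.35 and -2.28 in WT_CK. The WT_CK libraries were the lowest, the OX_CK libraries lay between them and the Al libraries, and the 3 OX_CK libraries differed from each other more than those of any other group. These values describe genes chosen by the same contrast and are no test of it.

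**Figure D2:**
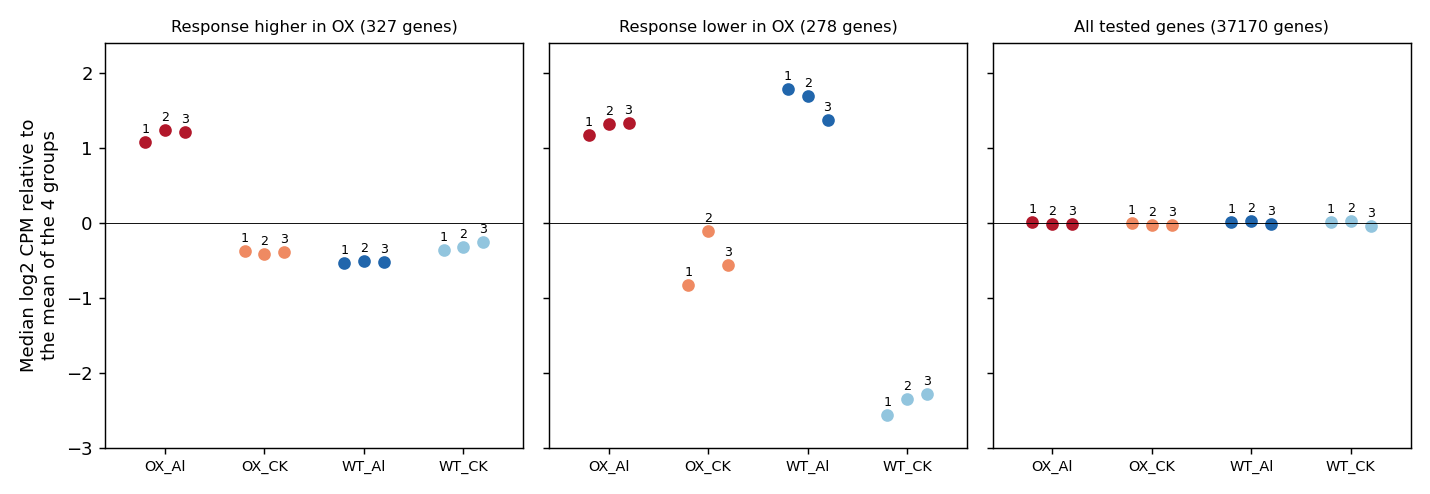
Median log2 CPM relative to the mean of the 4 groups (y axis) in each library, numbered by replicate, for the 327 genes that responded more in OX, the 278 that responded less and all 37170 tested genes. The OX_Al libraries stand apart at 1.08 to 1.24 on the left, and the OX_CK libraries spread from -0.83 to -0.11 in the middle panel; over all tested genes every library is near 0.

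Both genes named by rule among the higher ones were high in OX_Al alone. Glyma.11G212300, on chromosome 11, had the smallest p of all tested genes. It had 101.5, 134.5 and 134.6 CPM in OX_Al, 3.23, 2.76 and 2.81 in OX_CK, 4.41, 4.39 and 2.82 in WT_Al, and 3.84, 4.61 and 3.71 in WT_CK. Every OX_Al library was far above the other 9, whose values were all of one order. In 1 library its count has decimals. Its log2 response was 5.39 ± 0.21 (SE) in OX and -0.07 ± 0.19 in WT, and the difference was 5.46 ± 0.27 (95% interval 4.86 to 6.06, edgeR adjusted p = 5.36e-06).

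Glyma.09G233300, on chromosome 9, ranked next at a higher starting level. It had 112.1, 124.3 and 139.1 CPM in OX_Al, 24.4, 22.1 and 21.3 in OX_CK, 21.5, 19.0 and 20.4 in WT_Al, and 22.5, 24.4 and 25.5 in WT_CK. The OX_Al libraries again did not overlap with any other, and the 3 other groups lay within a few CPM of each other. The log2 response was 2.47 ± 0.12 in OX and -0.25 ± 0.12 in WT, a difference of 2.72 ± 0.17 (edgeR adjusted p = 3.02e-05). Its values are not whole numbers in any of the 12 libraries, so its reads may have been divided with a near-identical copy.

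Glyma.13G203000, on chromosome 13, had the smallest p among the lower genes. It had 2541, 3265 and 2723 CPM in OX_Al, 437.3, 945.3 and 901.6 in OX_CK, 1820, 1729 and 1417 in WT_Al, and 6.42, 10.9 and 10.8 in WT_CK. The WT_CK libraries were low, and the OX_CK libraries, also without aluminium, stood far above them. Its log2 response was 1.90 ± 0.31 in OX and 7.46 ± 0.40 in WT, a difference of -5.56 ± 0.45 (95% interval -6.55 to -4.57, edgeR adjusted p = 0.000156). The sign of the estimate depends on the scale: in CPM the rise was 2082 in OX and 1646 in WT. That difference of 436.1 ± 297.7 (SE from the group SDs) is in the other direction but less than 2 SEs from 0. With aluminium the lines were not called different for this gene, at a log2 ratio of OX to WT of 0.78 ± 0.30 (edgeR adjusted p = 0.191).

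Glyma.13G102800, on the same chromosome, had 49.0, 61.6 and 58.2 CPM in OX_Al, 3.52, 7.21 and 4.37 in OX_CK, 56.9, 52.9 and 47.0 in WT_Al, and 0.274, 0.388 and 0.258 in WT_CK. The Al libraries of both lines overlapped, and the CK libraries did not. The log2 response was 3.48 ± 0.23 in OX and 7.38 ± 0.31 in WT, a difference of -3.91 ± 0.39 (edgeR adjusted p = 0.00071). In CPM the rise was 51.2 in OX and 51.9 in WT, a difference of -0.725 ± 4.84 (SE from the group SDs). The called difference is thus one of folds, not of CPM. The level in WT_CK rests on 17 counts over the 3 libraries.

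**Figure D3:**
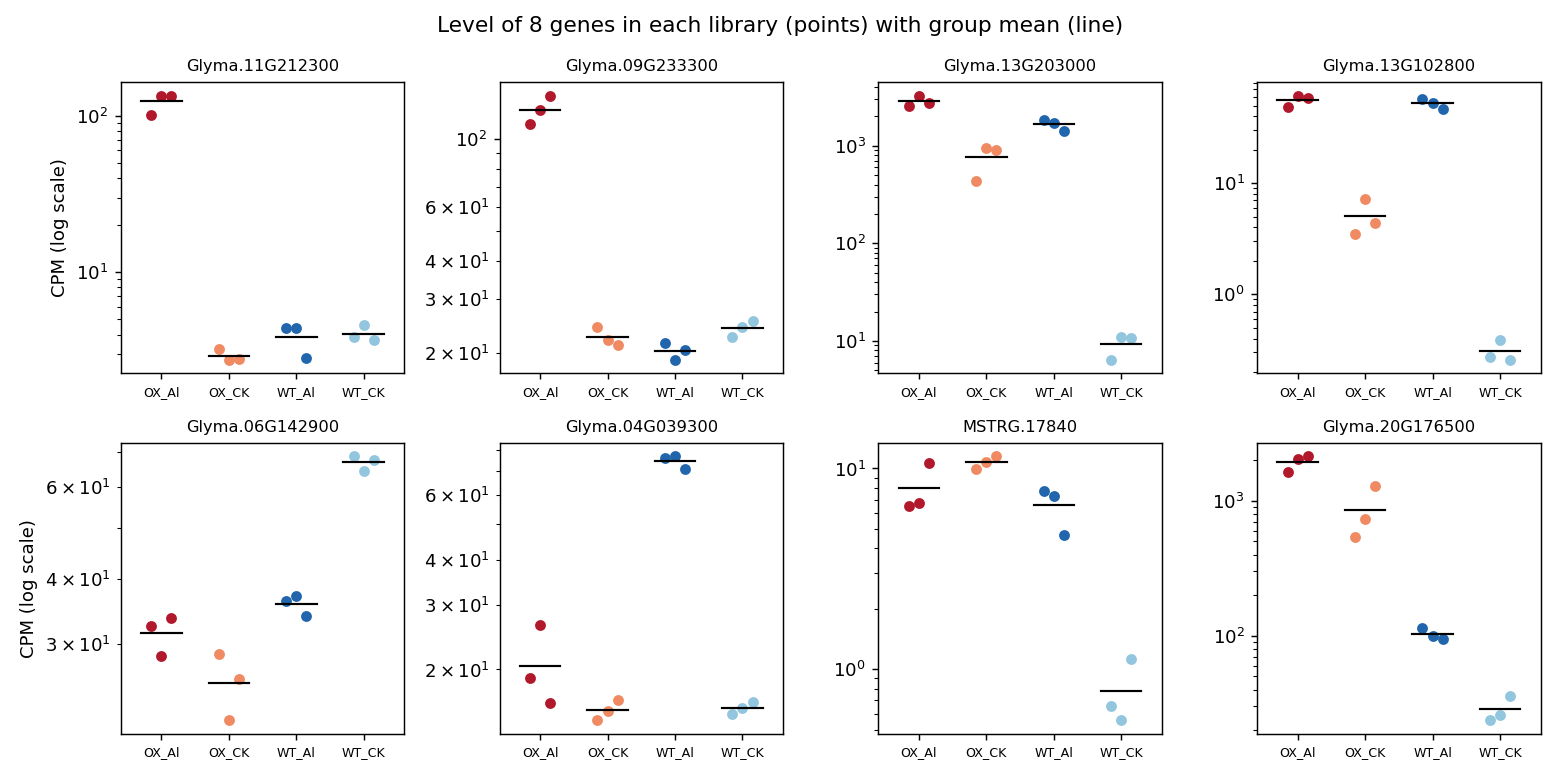
CPM (log scale, y axis) of 8 genes in each library (points, 3 per group) with the group mean (line). Glyma.11G212300 and Glyma.09G233300 are high in OX_Al alone, Glyma.13G203000 and Glyma.13G102800 are low in WT_CK and intermediate in OX_CK, and the lower row shows the 4 genes chosen after their values were seen.

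The patterns behind the calls were then sorted by the 4 group means. OX_Al had the highest mean for 267 of the 327 higher genes (81.7%), against 9288 of all 37170 tested genes, and WT_CK had it for 59, against 11333 of all tested genes (30.5%). For 169 of the 327 (51.7%) the mean was lower with Al in WT and higher with Al in OX, against 9.85% of all tested genes. Among the 278 lower genes, WT_CK had the lowest mean for 250 (89.9%), against 27.4% of all tested genes. For 217 of them (78.1%, against 20.8% of all tested genes) both Al means lay above the OX_CK mean, and the OX_CK mean above the WT_CK mean. WT_Al had the highest mean for 183 of the lower genes (65.8%), against 8554 of all 37170 tested genes. OX_Al had it for 81 (29.1%), against 9288 of all tested genes, and OX_CK for 14 (5.04%), against 7995. A called sign limits which of these orders can occur, so the shares describe the calls.

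These counts moved with single libraries. The 59 higher genes with the highest mean in WT_CK became 113 without WT_Al replicate 3. They became 23, 18 and 36 without OX_Al replicate 1, 2 or 3, 28 without OX_CK replicate 2, 24 and 19 without WT_Al replicate 1 or 2, and 20 without WT_CK replicate 2. With the replicate number as a block they were 98. The 250 lower genes with the lowest mean in WT_CK became 412 without OX_CK replicate 1. They became 92, 96 and 103 without OX_Al replicate 1, 2 or 3, 140 without OX_CK replicate 2, 109 and 88 without WT_Al replicate 1 or 2, and 140 and 94 without WT_CK replicate 1 or 2. These are counts in each fit, not counts of shared genes.

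The libraries of the groups were also compared directly. The genes were called on these same libraries, so the orders describe the calls and are no test of them. All 3 OX_Al libraries were above all 9 others for 248 of the 327 higher genes, where 8.27% of all tested genes had that order. The same order held for 32 of the 278 lower genes. All 3 WT_Al libraries were below the 9 others for 68 of the 327 higher genes, against 1.39% of all tested genes. All 3 WT_CK libraries were above the 9 others for 47 of the 327 higher genes, against 5.4%. All 3 WT_CK libraries were below the 9 others for 221 of the 278 lower genes and 14 of the 327 higher genes, against 5.56% of all tested genes. All 3 WT_Al libraries were above the 9 others for 110 of the lower genes, against 4.65%.

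A stricter reading asked for genes in which 1 group stood at least 2-fold from each of the other 3, while those 3 lay within 2-fold of each other (means plus 0.1 CPM). Of the tested genes 1377 had such a pattern, and 213 of these were called for the interaction. OX_Al stood high for 439 tested genes (1.18%), of which 140 were called, and WT_Al stood high for 154 (0.414%), of which 21 were called. OX_CK stood high for 21 tested genes (0.0565%) and WT_CK for 231 (0.621%), of which 1 and 6 were called. OX_CK stood low for 87 tested genes (0.234%), of which 1 was called, and WT_CK stood low for 285 (0.767%), of which 37 were called. OX_Al stood low for 102 tested genes (0.274%) and WT_Al for 58 (0.156%), of which 1 and 6 were called. Genes high in OX_Al alone were thus the most frequent single-group pattern, both among the tested and among the called genes. In fits without 1 library, the called genes high in OX_Al alone numbered 86 to 130, with 86 without OX_Al replicate 2 and 89 without WT_Al replicate 2. Those low in WT_CK alone numbered 14 to 63, with 63 without OX_CK replicate 1, and those high in WT_Al alone 7 to 24. Both of these counts fell by more than 1.5 times without any 1 of the OX_Al libraries, OX_CK replicate 2, or replicate 1 or 2 of WT_Al or WT_CK. Over the 140 called genes high in OX_Al alone with all 12 libraries, the median relative level was 1.36, 1.62 and 1.55 in the OX_Al libraries, and it lay between -0.56 and -0.49 in the other 9.

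**Figure D4:**
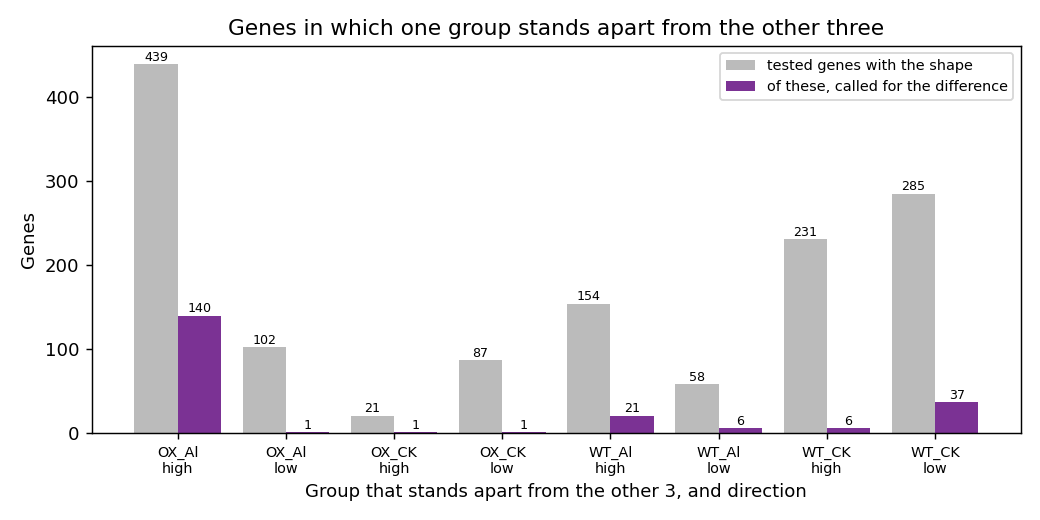
Number of genes (y axis) in which 1 group mean stands at least 2-fold above (high) or below (low) the other 3, which lie within 2-fold of each other, for all tested genes (grey) and for those called for the interaction (purple). OX_Al high is the most frequent pattern with 439 tested and 140 called genes, and OX_CK high is the rarest with 21 and 1.

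Of the other patterns, 3 are shown by the gene with the smallest p in each, chosen after the values were seen. Glyma.04G039300, on chromosome 4, was high in WT_Al alone. It had 18.9, 26.4 and 16.2 CPM in OX_Al, 14.5, 15.4 and 16.5 in OX_CK, 75.8, 76.7 and 70.9 in WT_Al, and 15.1, 15.7 and 16.3 in WT_CK. This is the mirror image of the pattern of Glyma.11G212300, with OX and WT exchanged. In 4 libraries the count of Glyma.04G039300 has decimals. The log2 response was 0.40 ± 0.16 in OX, which was not called (edgeR adjusted p = 0.0628), and 2.24 ± 0.16 in WT, a difference of -1.84 ± 0.22 (edgeR adjusted p = 0.00192).

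Glyma.06G142900, on chromosome 6, represents the 59 higher genes with their highest mean in WT_CK. It had 32.5, 28.5 and 33.7 CPM in OX_Al, 28.7, 21.4 and 25.7 in OX_CK, 36.3, 37.1 and 33.9 in WT_Al, and 68.8, 64.6 and 67.8 in WT_CK. Only the WT_CK libraries were high, and the OX_Al and OX_CK libraries overlapped. The log2 response was 0.32 ± 0.13 in OX, which was not called (edgeR adjusted p = 0.0617), and -0.91 ± 0.12 in WT, where it fell (edgeR adjusted p = 0.00014). The difference of 1.23 ± 0.18 (edgeR adjusted p = 0.00513) is thus positive although the gene was not called as raised by aluminium in either line.

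MSTRG.17840, a locus without a Glyma identifier, was low in WT_CK alone. It had 6.48, 6.70 and 10.7 CPM in OX_Al, 9.98, 10.8 and 11.5 in OX_CK, 7.73, 7.26 and 4.65 in WT_Al, and 0.658, 0.555 and 1.13 in WT_CK. The other 9 libraries were all several times above the WT_CK libraries. In 1 library the count of this locus has decimals. The log2 response was -0.44 ± 0.27 in OX, which was not called (edgeR adjusted p = 0.216), and 3.04 ± 0.32 in WT, a difference of -3.48 ± 0.42 (edgeR adjusted p = 0.00187).

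A gene can differ strongly between the lines without a called interaction. Glyma.20G176500 was also chosen after its values were seen, for its high ratio of OX to WT, so that ratio is part of the choice. It had 1624, 2052 and 2138 CPM in OX_Al, 543.4, 732.5 and 1283 in OX_CK, 114.0, 99.8 and 95.4 in WT_Al, and 23.6, 26.1 and 36.0 in WT_CK. It was higher in OX in every library of both treatments and higher with Al in every library of both lines. The log2 response was 1.18 ± 0.29 in OX and 1.85 ± 0.30 in WT, and the difference of -0.67 ± 0.41 was not called (95% interval -1.56 to 0.23, edgeR adjusted p = 0.575). On the CPM scale the difference was 1011 ± 272.9 in the other direction. In 11 libraries its value has decimals.

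The choice of scale mattered for the lower genes as a set. All 327 higher genes also had a positive difference in CPM, by more than 2 of its SEs. Counts of this kind describe the calls and are no test of them, since the same libraries made the calls. Of the 278 lower genes, 234 (84.2%) kept their sign in CPM, 166 of them by more than 2 SEs, and 44 (15.8%) turned it, 17 of them by more than 2 SEs. Over these 44 genes the median level was 96.9 CPM in OX_Al, 17.3 in OX_CK, 49.7 in WT_Al and 1.03 in WT_CK. Over the 234 genes that kept the sign it was 31.2 CPM in OX_Al, 10.6 in OX_CK, 42.8 in WT_Al and 3.43 in WT_CK.

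The calls were spread over abundances and chromosomes. In 5 equal bins of mean level, the share called was 0.592% in the lowest bin (0.163 to 2.46 CPM), 1.44%, 1.79% and 2.11% in the next 3, and 2.21% in the highest (34.0 to 4603.6 CPM). The median SE of the difference was 0.70 in the lowest bin and 0.24 in the highest, so a difference of one size was less detectable in the rarest genes. In the lowest bin 34 calls were higher and 10 lower, and in the highest 56 were higher and 108 lower. Lower-response calls were the more abundant: the median mean of the highest group was 49.0 CPM for them and 26.2 CPM for the higher-response genes, against 14.7 CPM over all tested genes.

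By chromosome the share called ran from 0.819% on chromosome 20 (13 of 1588) to 2.17% on chromosome 4 (37 of 1705). Chromosome 16 had 22 calls among 1352 tested genes, 1.63%, equal at this precision to the share over all tested genes. In a window of 50 tested genes the most calls were 6, on chromosome 9. Tested neighbours called in the same direction formed 10 pairs of higher genes and 15 pairs of lower genes, and no run was longer than 2. Of the 641 tested loci without a Glyma identifier 8 were called (1.25%). Among genes whose values are all whole, 1.84% were called, and among the others, whose reads may be shared with copies, 1.36%.

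How firmly each call rests on the libraries was read from fits without each library in turn. All 605 genes kept the sign of their difference in the 12 fits. Each of these fits shares 11 libraries with the fit that called the genes, so the kept sign was nearly fixed in advance. Of the 327 higher genes 147 (45.0%) were called in all 12 fits, and of the 278 lower genes 73 (26.3%). The 7 called genes named above are among these 220. Of the 147 genes, 82 were high in OX_Al alone by the 2-fold rule. Of the 73, 14 were low in WT_CK alone and 6 were high in WT_Al alone. In 6 or fewer of the fits 125 higher and 162 lower genes were called.

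The number of calls moved with single libraries. Leaving out OX_Al replicate 1, 2 or 3 gave 323, 272 and 318 calls. Leaving out OX_CK replicate 2 gave 389, WT_Al replicate 1 or 2 gave 335 and 273, and WT_CK replicate 2 gave 292. Without WT_CK replicate 1 the lower calls were 151. Without OX_CK replicate 1, the OX_CK library with the lowest median for the lower genes, the lower calls were 437 and the higher calls 299. Within OX_CK the median SD over replicates was 0.494 (log2) for the lower genes, against 0.271 over all tested genes. It was 0.299 against 0.226 in WT_Al, 0.327 against 0.291 in WT_CK and 0.178 against 0.188 in OX_Al. The part of this spread in the calls was not tested.

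**Figure D5:**
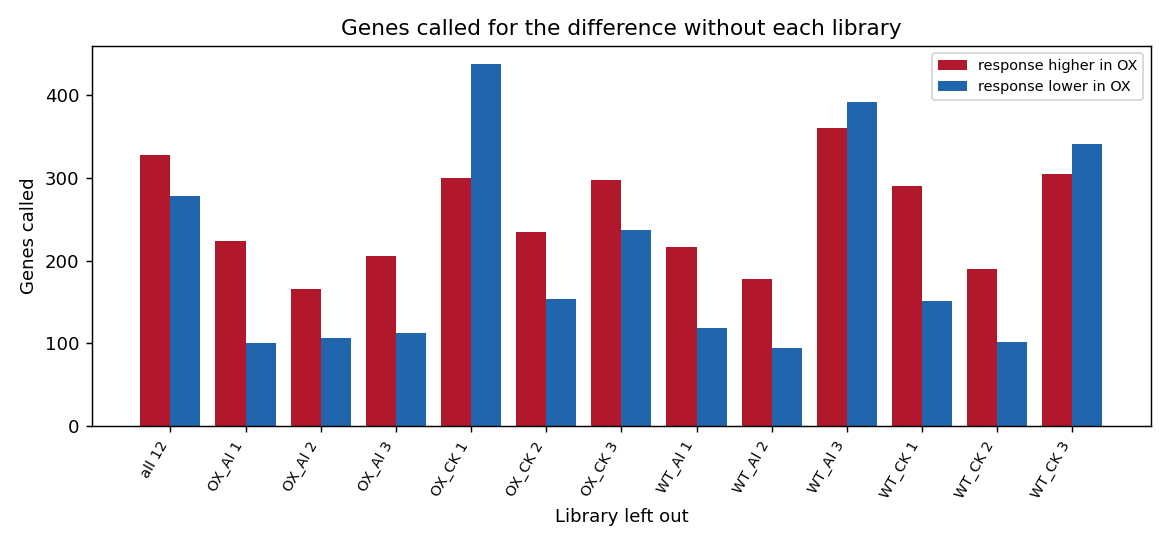
Number of genes called for the interaction (y axis) with all 12 libraries and without each library in turn (x axis), for a response higher (red) and lower (blue) in OX. The higher calls range from 166 to 360 and the lower calls from 95 to 437, and the lower calls exceed the higher ones without OX_CK 1, WT_Al 3 or WT_CK 3.

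The sign of the difference was also read in libraries that had not been used for the call. In this check, added after the data were seen, 1 replicate number was left out of all 4 groups, genes were called on the 8 other libraries, and the difference was computed from the 4 left-out libraries. With number 1 left out 108 genes were called, and all 108 had the same sign in the left-out libraries. Their median log2 difference was 3.0 in the fit and 2.31, in the direction of the call, in the left-out libraries. With number 2 left out 7 genes were called, and all 7 kept the sign, with a median of 3.82 in the fit and 3.78 in the left-out libraries. With number 3 left out 780 genes were called, and 715 (91.7%) kept the sign, with a median of 1.92 in the fit and 1.06 in the left-out libraries. Over all tested genes the sign was kept for 59.1%, 68.9% and 62.3%, with a median absolute log2 difference in the fit of 0.38, 0.27 and 0.34. The called genes were chosen for large differences, and genes near 0 change sign easily. A higher share among the called genes was thus likely in advance and does not measure the calls. The left-out libraries may also be partly technical repeats of the others. The number of calls depended on which libraries were used.

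For most genes the difference was not called, which does not show that the lines responded alike. The median SE of the difference was 0.33 (log2) over all tested genes. The 95% interval lay within 1 log2 unit on either side of 0 for 16881 of the 36565 genes not called (46.2%). For 6476 of them (17.7%) the interval reached 2 log2 units or more in at least 1 direction, so a 4-fold difference was not excluded for them. Of the 605 called genes, 391 (64.6%) had an interval wholly beyond 1 log2 unit. In 8 higher and 10 lower called genes at least 1 group had 3 or fewer counts over its 3 libraries, and their fitted sizes depend on how such counts are treated.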

How the data were processed

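RNA was measured by sequencing in 12 libraries of soybean roots, and groups and replicate numbers came from the sample titles. The table the authors deposited holds an estimated count for each gene and library, with up to 2 decimals and no scaling across libraries, per the file headers and values. Of its values 13.25% were not whole (tolerance 1e-06), and genes with such values held 66.4% of the counts. The tools named are HTSeq 0.6.0, TopHat2, HISAT2 2.1.0, Bowtie2 2.2.3 and CASAVA, without a stated use, per the submitters' processing notes. Genome build, annotation, strand setting and the source of the decimals were not given in the sources used here, so overlapping, antisense and near-identical genes are uncertain. Of the rows, 8 held stray text and were left out.

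The values were rounded to whole numbers. Genes were kept by filterByExpr (minimum count 10, minimum total 15), which left 99.9% of the counts, and libraries were scaled by TMM. edgeR 4.0.16 (R 4.3.3) fitted a mean per group to all 12 libraries with the robust quasi-likelihood F-test, two-sided, and p-values were adjusted by Benjamini-Hochberg over all 37170 genes. The SE is the log2 difference over the square root of F and is approximate, as are the 95% intervals. Intervals cover the spread between these libraries only. The same test was run on simulated libraries of the interaction (36674 genes tested). It recovered 86% of genes raised by 2 log2 units and 10% of those raised by 1. It recovered 80% and 6% of those lowered by 2 and 1, with 8 false calls among 99. Each size had 50 altered genes. The altered genes were drawn from those above a minimum mean level. Each change was put into OX_Al alone, with no other difference between the lines. Other patterns, such as a low level in WT_CK, were not simulated. The rates thus cannot be carried over to the rarest genes or to the other patterns among the calls.

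The comparison, the genes and the lists were chosen with earlier results of these data known. By rule, the 2 called genes of smallest p in each direction with at least 5 CPM in the highest group were named; the rule's larger choice and the lists of gene groups and markers needed gene descriptions, and 0 identifiers matched the 59048 genes of the reference table, so neither was used. Relative levels used log2 CPM with a prior count of 2. Alternatives were RLE scaling, 2 other filters, DESeq2 1.42.0, limma-voom (limma 3.58.1), no robust option, other thresholds, values rounded down, whole-valued genes alone, a replicate block, the CPM scale and leaving out libraries.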

Additional observations from a re-analysis of the deposited data

Results flagged for a closer look

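The Al response differed between OX and WT by the test of the interaction itself for 605 genes, which is what brought the genes below to attention. The log2 difference was 5.46 for Glyma.11G212300 and 2.72 for Glyma.09G233300, which were high in OX_Al alone. It was 1.23 for Glyma.06G142900, which was highest in WT_CK. It was -5.56 for Glyma.13G203000, -3.91 for Glyma.13G102800 and -3.48 for MSTRG.17840, which were lowest in WT_CK, and -1.84 for Glyma.04G039300, which was high in WT_Al alone. Groups of 3 libraries are too small for a check of single libraries that stand apart.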

How the results depend on the processing

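Of the 605 calls (327 higher, 278 lower), fits without 1 library gave 272 to 751 in all, 166 to 360 higher and 95 to 437 lower. The DESeq2 Wald test called 1491 genes (760 higher, 731 lower), and limma-voom called 137 lower. An adjusted p under 0.01 left 147 (107 higher, 40 lower). Refitting only genes whose values are all whole gave 392 calls (180 higher, 212 lower). The main fit had 386 calls (203 higher, 183 lower) among its 21020 tested genes of that kind. The 392 are thus to be read against these 386, not against the 605. With 8 libraries the calls were 108 (63 higher, 45 lower) without number 1, 7 (5 higher, 2 lower) without number 2 and 780 (438 higher, 342 lower) without number 3. The higher share of calls was 54.0% with all 12 libraries, 69.4% by limma-voom, 72.8% at an adjusted p under 0.01 and 40.6% to 69.0% without 1 library. The cause of these shifts in share was not tested, nor was that of the other changes in the number of calls. On the CPM scale the difference changed sign for Glyma.13G203000 (436.1 ± 297.7, less than 2 SEs from 0). It also did for Glyma.20G176500 (1011 ± 272.9), which was not called. For Glyma.13G102800 it was near 0 on that scale (-0.725 ± 4.84). The named called genes kept their calls in every fit on 12 or 11 libraries that tested them on the log2 scale; on 8 libraries, Glyma.11G212300 and Glyma.13G102800 kept theirs in all 3 fits and the other 5 lost theirs in at least 1 fit. The median over all genes moved by less than 0.1 under every scaling.

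The replicate numbers were not taken to pair the libraries, and the main test has no term for them. Same-numbered libraries of 2 groups correlated between -0.13 and 0.58 in their deviations. Of 18 pairs, 12 were over 0.1 and 9 matched their own number best. These 9 were all of number 1 or 3, so the pooled count hides a difference by number. Between OX_CK and WT_CK (0.41, 0.12 and 0.58) and between WT_Al and WT_CK (0.13, 0.22 and 0.36) all 3 same-numbered pairs were over 0.1, but not between the other groups. With the replicate block 728 genes were called (427 higher, 301 lower), among them 315 of the 327 higher and 240 of the 278 lower genes. The lists of gene groups and markers, and their alternatives, were not run. Depth and 3 libraries a group limit the test most for genes under 2.46 CPM.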
